A study of Mus musculus with 96 samples.

Results

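SOX17 binding upon Oct4 knock-down was examined at all 42403 of the 42403 regions that the deposited table lists as bound by GATA6, which had a median width of 525 bp. No region was selected on its values: at each one, the SOX17 signal of cells given Oct4 siRNA was set against that of cells given control siRNA, after removal of the median shift between both. The cells were mouse KH2 embryonic stem (ES) cells of C57BL/6 x 129/Sv genotype carrying a doxycycline (Dox)-inducible Gata6 cassette, and for the knock-down a single clone, G6.3, was used. They were nucleofected with a pool of siRNAs against Pou5f1, the gene encoding OCT4, or with a non-targeting control pool, plated at once on feeder cells in 1 µg/mL Dox and harvested after 48 h. All cells compared here therefore carried induced GATA6 and differed by the siRNA. Immunoprecipitated chromatin was sequenced (ChIP-seq), with 2 SOX17 libraries per siRNA, and 2 GATA6 libraries per siRNA served as the closest comparison. The table gives a single value per region and siRNA, in RPM (reads scaled to library size), pooled over both libraries. Neither OCT4 binding nor Oct4 RNA was measured in these libraries, so that the depth of the knock-down was not checked here.

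SOX17 is a transcription factor of the SOX family, which binds DNA through an HMG box and is a hallmark of the primitive endoderm (PrE), the extra-embryonic lineage that GATA6 specifies. OCT4 and SOX2 maintain pluripotency and bind together to a composite OCT:SOX motif, in which a SOX site sits next to an octamer site. SOX17 can itself pair with OCT4 on composite motifs, and when GATA6 is induced in ES cells, OCT4 and SOX2 are still present while SOX17 appears.

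The 2 motifs by which the regions were grouped are shown first, at the best-scoring matches among the 20 most changed regions. The following stretches, read 5′ to 3′ on the strand of the motif from the RefSeq sequence of GRCm38.p6 (the assembly named mm10), hold the best OCT:SOX match of 4 regions where SOX17 fell. The capitals mark the 15 bases of the match, and each region is named after the nearest protein-coding gene start.
Trim24, chr6:37767707-37767767, minus strand: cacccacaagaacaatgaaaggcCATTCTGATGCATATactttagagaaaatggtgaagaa
Cdh19, chr1:110790784-110790844, minus strand: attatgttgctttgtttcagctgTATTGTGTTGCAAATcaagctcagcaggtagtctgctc
Cacng7, chr7:3348095-3348155, plus strand: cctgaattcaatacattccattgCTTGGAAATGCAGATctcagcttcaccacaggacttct
Kif20b, chr19:35394272-35394332, minus strand: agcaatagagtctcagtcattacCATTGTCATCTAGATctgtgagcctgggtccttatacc
The authors' FIMO score of these matches was 15.63 at Trim24, 14.54 at Cdh19 and 14.41 at Cacng7, which they class as high, and 10.9 at Kif20b, which they class as mid. Over the 2834 regions of the high class, the most frequent base at each position gave CTTTGTTATGCAAAT, with the SOX site on the left and the octamer site on the right. The match lay 15 bp from the summit of the Cdh19 region, 40 bp at Cacng7 and 68 bp at Trim24, but 364 bp away at Kif20b.

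The next stretches hold the best SOX17 match, 9 bases in capitals, of 4 regions where SOX17 rose, for comparison with the composite motif.
Cmtm4, chr8:104397230-104397284, minus strand: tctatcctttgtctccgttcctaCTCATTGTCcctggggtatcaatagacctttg
Clnk, chr5:38939652-38939706, minus strand: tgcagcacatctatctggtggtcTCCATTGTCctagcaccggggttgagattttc
Usp31, chr7:121552914-121552968, plus strand: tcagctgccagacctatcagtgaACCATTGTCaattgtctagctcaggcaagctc
Ext1, chr15:53239742-53239796, minus strand: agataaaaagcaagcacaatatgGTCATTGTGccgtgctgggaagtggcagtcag
All 4 share the ATTGT core and fall in the high SOX17 motif class, with scores of 12.81, 12.34, 11.99 and 11.45 in the order shown. The most frequent bases over the 8324 regions of that class gave CCCATTGTC.

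The pooled values could be resolved, region by region, into whole reads of 2 libraries for all 42403 regions, which gave the spread between libraries. The control libraries held 23.9 and 19.4 M reads and the Oct4 siRNA libraries 27.7 and 13.7 M. The share of reads inside the regions was 7.16% and 7.59% in the control libraries, 8.32% in the deeper and 15.0% in the shallower Oct4 siRNA library, so that the shallower Oct4 siRNA library stood apart. Its median value over the regions was 1.67 RPM, against 0.904 RPM in the other Oct4 siRNA library and 0.795 and 0.825 RPM in the control libraries. Accordingly, the pooled SOX17 signal was 1.42-fold higher under Oct4 siRNA at the median region, a log2 shift of 0.50, but the shift was 0.15 and 0.10 against either control with the deeper Oct4 siRNA library and 0.90 and 0.86 with the shallower one. Whether SOX17 binding rose as a whole cannot be told apart from the yield of that library. All changes below are therefore relative to the median region. They are differences of log2(RPM + 0.224), where the pseudocount understates the change of weakly bound regions, and 33291 regions (78.5%) with a mean of at least 0.5 RPM were tested.

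Relative to the median, SOX17 was redistributed rather than uniformly changed after Oct4 knock-down. The pooled change ran from -2.46 to 3.02, with 5417 regions below -0.5 (16.3%) and 7715 above 0.5 (23.2%) of 33291. In the limma fit over the 4 libraries, each centered on its own median, SOX17 fell at 3465 regions (10.4%) and rose at 4705 (14.1%) at a Benjamini-Hochberg adjusted p under 0.1 and a log2 difference past 0.5. The libraries of both siRNAs did not overlap at 8866 regions (26.6%) where Oct4 siRNA was lower and 10083 (30.3%) where it was higher. The SD of the log2 difference between libraries of the same siRNA was 0.47 for control and 0.45 for Oct4 siRNA, against 0.66 to 0.72 for the 4 pairs of a control with an Oct4 siRNA library. Differences between siRNAs thus spread more widely than those within an siRNA. The split into lower and higher regions depended on the scaling, with 1225 lower and 18324 higher when the shift was kept, 19 and 2082 in limma without centering, and 695 and 4132 with a pseudocount 10 times larger. The number of calls depended on each Oct4 siRNA library, with 1678 lower and 1938 higher in limma without the shallower one and 1885 and 2540 without the deeper one, and 2164 were lower without the shallower control library. When the 4 libraries were split into 2 pairs that share no library, the changes correlated across regions with a Spearman rho of 0.54 in either split, a description of regions and not a test. With 2 libraries against 2 a permutation test of a single region cannot go below p = 0.33, so that calls rest on the spread shared across regions.

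**Figure D1:**
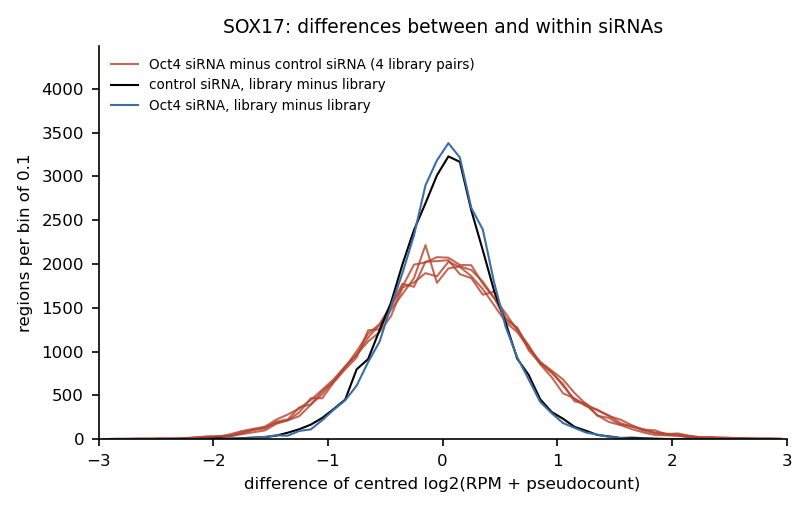
Distribution over the tested regions of the log2 SOX17 difference between single libraries, each centered on its median (x axis, log2 units), for pairs of different siRNA and pairs of the same siRNA (y axis, regions). Pairs of different siRNA are wider (SD 0.66 to 0.72) than pairs of the same siRNA (0.45 and 0.47).

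The 10 largest falls among the more strongly bound regions lay 13.1 to 472 kb from the nearest gene start, 8 of them between genes, and OCT4 was at 2.16 to 10.2 RPM there at day 2 of Dox in cells without siRNA. The Kif20b region (chr19:35394137-35394845, mm10, intergenic, 472 kb from the start of this mitotic kinesin gene) held 7.53 and 8.72 RPM in the control libraries and 2.31 and 2.40 RPM in the Oct4 siRNA libraries. By the rule for choosing regions the groups did not overlap, although the Oct4 siRNA libraries had the higher median. The limma log2 difference was -2.19 ± 0.23 (SE, n = 2 libraries per siRNA, Benjamini-Hochberg adjusted p = 1.86e-18). Here and below, the SE is moderated by limma with the spread of the other regions. It is not the spread of the region's own libraries. OCT4 at this region was 0.538 RPM before induction and 4.89 RPM at day 2, in the class of ectopic sites, where pluripotency factors were called only after GATA6 induction. Near Sfrp1, which encodes a secreted Wnt inhibitor, the region chr8:23391751-23392582 (intergenic) held 5.86 and 7.06 RPM under control and 2.02 and 2.26 RPM under Oct4 siRNA. The region near Gpr6, an orphan receptor gene (chr10:41144849-41145343, intergenic), held 7.12 and 7.89 RPM against 1.59 and 3.79 RPM. Both belong to the closed chromatin of undifferentiated cells and to the ectopic class, as do 7 of the 10 in each respect.

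The other 3 of the 10 were bound by pluripotency factors before induction, and they are those with an OCT:SOX match of the high class. At Trim24, a transcriptional co-regulator, the region chr6:37767160-37768085 lay 103 kb upstream and went from 3.81 and 3.71 RPM to 0.795 and 1.75 RPM. At Cdh19, a cadherin, chr1:110790525-110791023 went from 5.86 and 5.57 RPM to 1.48 and 2.55 RPM. Inside an intron of Cacng7, a calcium channel subunit gene, chr7:3347880-3348653 went from 3.81 and 4.38 RPM to 1.08 and 1.67 RPM. OCT4 was strong at all 3 before induction, at 5.69, 4.37 and 10.5 RPM, respectively. Over the 10 falls, which also include regions near Rad51ap2, Dscaml1, Rps15a and D430019H16Rik, limma log2 differences ran from -2.26 to -1.91 with Benjamini-Hochberg adjusted p from 1.65e-18 to 4.86e-10. The falls were ranked by their change among regions without overlap, so that their high control values and small p describe the choice. In the time course of Dox induction without siRNA, made of other libraries, SOX17 at these regions had a median of 6.21 RPM at day 2 and 0.714 RPM at day 4, and GATA6 changed by -1.80 to -0.68 upon knock-down. Without centering, the falls near Sfrp1, Cacng7, Cdh19 and D430019H16Rik did not pass.

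The 10 largest rises held 0.126 to 1.26 RPM of SOX17 in the control libraries. Since they had to exceed a mean of 2.43 RPM over both siRNAs and were ranked by their rise, they entered through the Oct4 siRNA signal, and their low control values and small p describe the choice. The intronic region of Tshr, the thyrotropin receptor gene (chr12:91476603-91477928), held 1.26 and 0.928 RPM under control and 8.97 and 13.2 RPM under Oct4 siRNA, for a limma log2 difference of 2.59 ± 0.24 (SE, n = 2 per siRNA, Benjamini-Hochberg adjusted p = 1.96e-22). Near Clnk, an immune adaptor gene, chr5:38939280-38940076 (intergenic) went from 0.879 and 0.980 RPM to 6.65 and 13.0 RPM. In an intron of Ext1, which encodes a heparan sulfate polymerase, chr15:53239530-53240134 went from 0.502 and 0.309 RPM to 3.54 and 8.74 RPM. By the rule, libraries of both siRNAs do not overlap at any of them, and the shallower Oct4 siRNA library was the higher of its pair. Near Usp31, a deubiquitinase gene, chr7:121552583-121553118 went from 0.837 and 0.464 RPM to 5.03 and 9.61 RPM, and 1.52 kb upstream of Cmtm4, chr8:104397150-104397512 went from 0.126 and 0.567 RPM to 3.0 and 6.12 RPM. Regions near Rplp1, Ptger3, Cacybp, Mobp and Nrp1, the last a semaphorin and VEGF co-receptor gene, complete the 10.

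Of these 10 rises, 9 were in the Late GATA6 cluster and had no pluripotency factor called, and 8 were closed before induction. The exception was the region next to the start of Mobp, a myelin gene, an accessible active enhancer bound by pluripotency factors. No rise had a high OCT:SOX match, a class that holds 5.96% of all tested regions, and 4 had a high SOX17 match, against 22.4%, so that 10 regions say little about either motif. Limma log2 differences ran from 2.45 to 2.91, with Benjamini-Hochberg adjusted p from 1.96e-22 to 1.58e-12. In the Dox time course without siRNA the same regions had a median SOX17 of 0.611 RPM at day 2 and 6.36 RPM at day 4, the opposite order of the falls. Control siRNA signal correlated with SOX17 at day 2 over all regions (Spearman rho 0.89), so that the day 2 levels of falls and rises follow from the choice. The contrast with day 4 is thus partly built in. At the rises the median OCT4 at day 2 was 0.449 RPM, against 4.89 RPM at the falls.

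**Figure D2:**
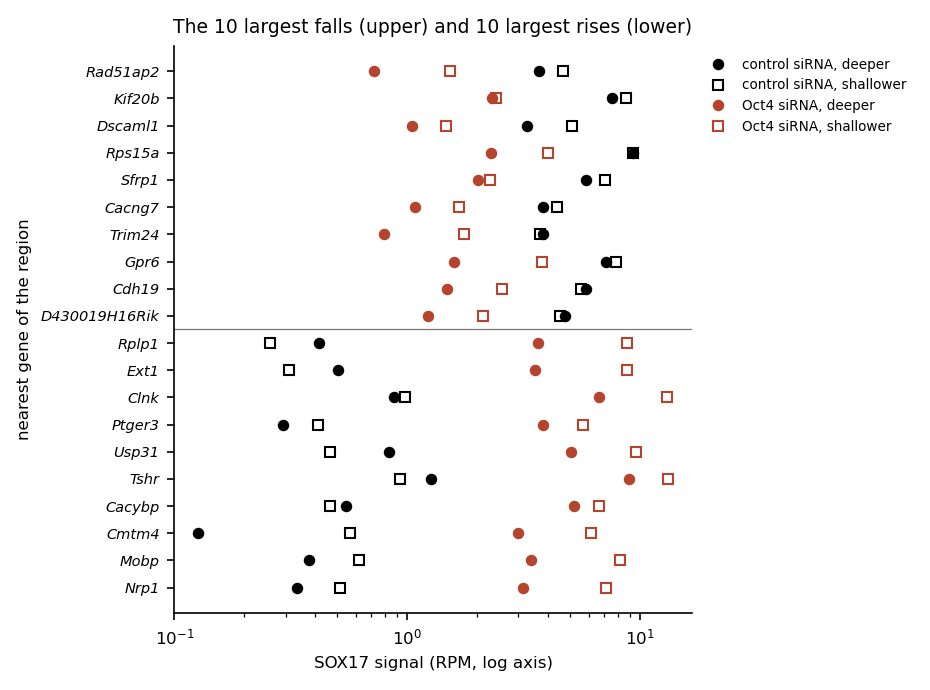
SOX17 signal in RPM (log axis) of each of the 4 libraries at the 10 regions with the largest falls and the 10 with the largest rises, named after the nearest gene start. The Oct4 siRNA libraries lie below both controls at the falls and above them at the rises, without overlap, as the rule for choosing them required.

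When all tested regions were grouped by OCT:SOX motif, the high class had the lowest changes. The 1983 regions with a high OCT:SOX score had a median change of -0.12 (-0.17 to -0.14 over the 4 library pairs, each centered separately), against 0.07 over all tested regions, and limma called 14.7% of them lower and 6.40% higher. With no OCT:SOX match the median was 0.08, with 9.36% lower and 12.7% higher. A low score gave about the same, 0.09 with 10.0% lower and 16.1% higher. A mid score gave 0.02 with 12.2% lower and 12.4% higher. In the high class, the distance of the match to the summit went with the size of the change. Within 50 bp of it, the median was -0.25 with 17.5% lower and 3.37% higher, from 50 to 150 bp it was -0.16, and at 150 bp or more it was 0.06 with 11.0% lower and 10.7% higher, close to the background. The score itself correlated weakly with the change across regions (Spearman rho -0.10), so that the difference was mainly in the upper scores.

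The SOX17 motif showed the reverse order. With a high SOX17 score the median change was 0.16, and 10.3% of 7466 regions were lower and 20.3% higher, whereas without a match it was 0.00, with 9.22% lower and 7.58% higher. In these limma calls the share of falls differed little from the background of 10.4%, and the classes differed by the share of rises. By the pooled change past the same log2 threshold, falls differed too. With a high score 14.3% were lower and 29.1% higher, and without a match 17.5% and 17.7%. Limma calls also varied with SOX17 signal. In its lowest decile 4.74% of regions were called lower and 1.8% higher, and in its highest decile 10.6% and 22.5%. Where the match of the high class lay within 50 bp of the summit, limma called 23.6% higher, and at 150 bp or more 17.7%. Regions with both a high OCT:SOX and a high SOX17 score had a median of -0.05, while a high OCT:SOX score without a SOX17 match went with -0.16 and the converse with 0.22. Signal differed too between these classes, with a median of 1.55 and 1.65 RPM in the control libraries for a high SOX17 score and 0.795 and 0.774 RPM for none. Compared within deciles of SOX17 signal, the excess of the high class over all regions was 0.06 in place of 0.09. For the ESRRB motif, that of a nuclear receptor of the pluripotency network, a high score went with a median of -0.06, 15.2% lower and 8.85% higher.

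Chromatin before induction separated the regions in the same sense. At the 2583 accessible regions the median was -0.09, with 13.4% lower and 3.68% higher, at moderately accessible ones -0.02, and at the 20175 closed regions 0.15, with 9.05% lower and 18.2% higher. The histone states that the authors assigned from ES cell data followed suit. Active enhancers had a median of -0.04 with 13.3% lower and 7.76% higher, while regions without marks (naive) had 0.17 with 8.70% lower and 21.6% higher, and facultative heterochromatin had 0.16 with 9.68% lower and 17.4% higher. Poised enhancers (0.00), primed enhancers (0.05) and constitutive heterochromatin (0.01) lay between. Promoters changed least often, with 5.72% lower and 4.96% higher. Within an OCT:SOX class accessibility kept the same order, from -0.19 at accessible to -0.03 at closed regions with a high score, and from -0.04 to 0.16 with no match.

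**Figure D3:**
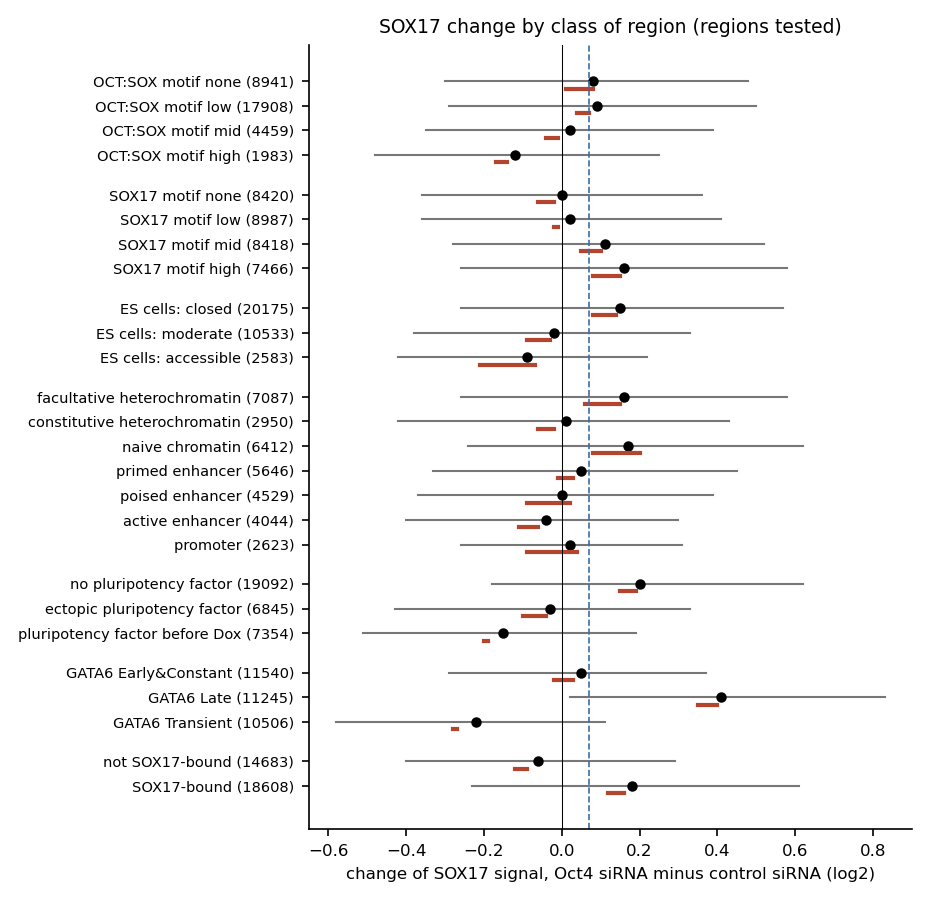
Median SOX17 change after Oct4 knock-down (x axis, log2 relative to the median region) by class of region, with the number of tested regions in brackets. Dots are medians of the pooled change, grey lines the quartiles over regions, red bars the range of the medians of the 4 library pairs, and the dashed line the median of all tested regions (0.07), with the lowest value shown by Transient regions (-0.22) and the highest by Late regions (0.41).

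Class medians were also taken without the library that stood apart. Taken as the difference from all tested regions, the median of a high OCT:SOX score was -0.19 with all libraries and -0.17 without the shallower Oct4 siRNA library. That of Late regions was 0.34 and 0.33. The classes of chromatin depended more on the deeper control library, without which closed regions went from 0.08 to 0.05, accessible ones from -0.16 to -0.10 and naive ones from 0.10 to 0.06.

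Classes by the binding of pluripotency factors lay further apart than those by motif. Regions where OCT4, SOX2 or ESRRB was called before induction had a median of -0.15, with 18.9% of 7354 lower and 5.62% higher. The 6845 ectopic sites had -0.03 with 17.3% lower and 12.0% higher, and the 19092 regions without these factors had 0.20 with 4.65% lower and 18.2% higher. Signal differed too, with control medians of 2.64 and 2.78 RPM at ectopic sites and 0.795 and 0.774 RPM without factors. By the pooled change past the same log2 threshold, 21.6% of ectopic sites were lower and 15.8% higher. Without factors these shares were 10.7% and 31.1%. A high OCT:SOX score without pluripotency factors went with a median of 0.10 and 3.27% lower, whereas the same score with factors bound before induction went with -0.19 and 17.1% lower. Without any OCT:SOX match, bound regions also had -0.19, with 23.2% lower. Of the 3465 falls, 40.2% were bound before induction and 34.2% were ectopic, against 22.1% and 20.6% of all tested regions. Of the 4705 rises, 73.7% had no such factor, against 57.3%.

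The amount of OCT4 measured at day 2 of Dox in cells without siRNA gave a graded order. In the lowest decile of OCT4 (median 0.260 RPM) the median SOX17 change was 0.48, with 41 regions lower and 849 higher of 3330. In the highest (median 6.93 RPM) it was -0.14, with 775 lower and 148 higher of 3329. Across regions the Spearman rho was -0.30, and -0.27 with OCT4 before induction. In RPM, the highest decile had medians of 5.27 and 5.57 in the control libraries and 5.03 and 8.74 in the Oct4 siRNA libraries, and the lowest 0.460 and 0.516 against 0.759 and 1.46. SOX17 signal thus also differed between the deciles.

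The changes correlated more with the later course of SOX17 than with any motif score, which is partly built in. From day 2 to day 4 of the Dox time course without siRNA, which shares no library with the knock-down, regions that lost most SOX17 (lowest decile, median log2 change -1.45) had a median of -0.65 upon Oct4 knock-down, with 1672 lower and 4 higher. Those that gained most (highest decile, median 1.88) had 0.86, with 3 lower and 2031 higher. At the fifth decile, where SOX17 barely moved between both days, the knock-down median was 0.01. Across all tested regions the Spearman rho was 0.68, and it was 0.46 with the SOX17 signal in XEN cells, a line of the PrE lineage. Both the knock-down change and the change from day 2 subtract a SOX17 level of the same regions at about day 2. Those levels correlated with a Spearman rho of 0.89 over all regions, so that separate libraries do not make both changes independent. In terms of levels, regions that fell had a median SOX17 signal of 2.49 RPM at day 2 that went down to 0.987 RPM at day 4, with 0.496 RPM in XEN cells. Regions that rose had 1.18, 3.85 and 3.37 RPM in the same order, and all tested regions 1.30, 1.57 and 1.13 RPM. Input chromatin at day 2 of this time course differed little between regions that fell and rose, at 0.508 and 0.448 RPM. The input libraries of the knock-down were not used.

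**Figure D4:**
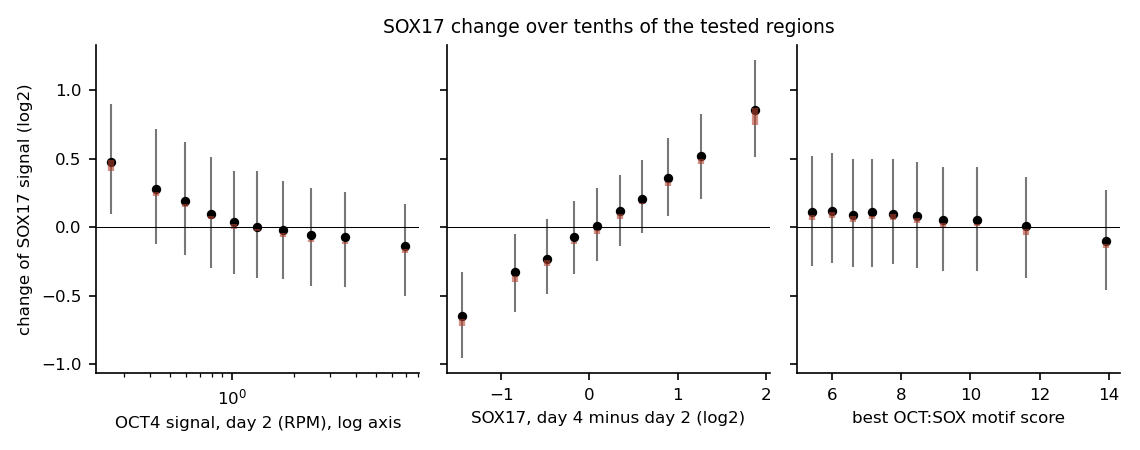
Median SOX17 change after Oct4 knock-down (y axis, log2 relative to the median region) in deciles of OCT4 signal at day 2, of the SOX17 change from day 2 to day 4 of Dox in cells without siRNA and of the best OCT:SOX score. The change falls from 0.48 to -0.14 with OCT4, climbs from -0.65 to 0.86 with the later SOX17 course and varies from 0.11 to -0.10 with the motif score. Part of the climb is built in, since both changes subtract a SOX17 level at about day 2.

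The GATA6 clusters, which describe when GATA6 binds, also separated the changes. Late regions had a median of 0.41, with 3.35% of 11245 lower and 28.3% higher, and Transient regions -0.22, with 17.3% of 10506 lower and 1.82% higher, while Early regions lay at 0.05 with 11.0% and 11.5%. At the 18608 tested regions called as bound by SOX17 the median was 0.18, and at the others -0.06. The lowest of the combined classes described here was Transient and ectopic, with a median of -0.49 and 35.4% lower. Late regions without pluripotency factors had 0.45.

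The closest comparison is GATA6 in the same knock-down, measured in separate libraries. SOX17 and GATA6 changes had a Spearman rho of 0.71 and a Pearson r of 0.73 across the regions tested for SOX17, as a description of regions that share peaks, width and sequence. Of 32380 regions tested for both, limma with Benjamini-Hochberg adjustment called GATA6 lower at 5720 (17.7%) and higher at 5453 (16.8%). Both factors fell at 2249 regions, 65.9% of the SOX17 falls and 39.3% of the GATA6 falls. Both rose at 3196, 69.0% of the SOX17 rises and 58.6% of the GATA6 rises, and 9 regions were called in opposite directions. A limma interaction of antibody and siRNA over the 8 libraries called 0 regions (0.00%), with a smallest Benjamini-Hochberg adjusted p of 0.146, while 2414 (7.46%) had an unadjusted p under 0.05. A difference between both factors was thus not detected at any single region with 2 libraries per group, which does not show that they changed alike.

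**Figure D5:**
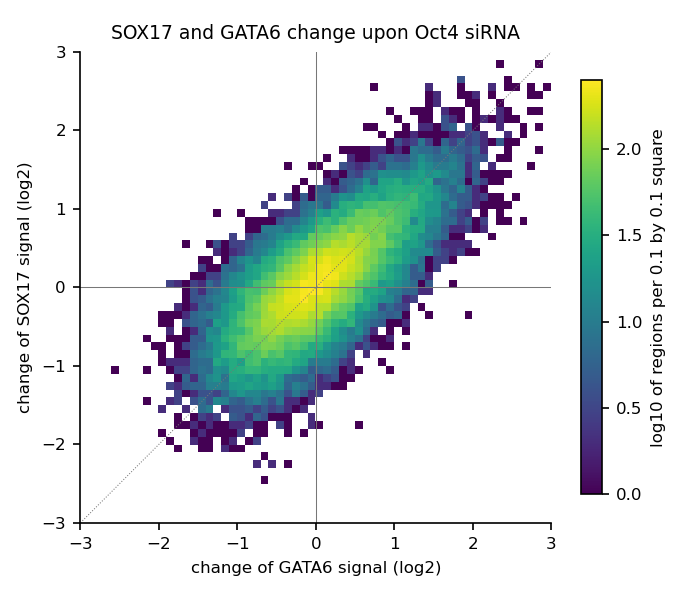
Number of regions by GATA6 change (x axis) and SOX17 change (y axis) after Oct4 knock-down, both in log2 relative to the median region. The regions spread along the diagonal, with a Spearman rho of 0.71.

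Genes of the lineages concerned were considered through the regions within 100 kb of their start. For 25 PrE genes, 299 regions were tested, of which 27 (9.03%) were below -0.5 and 67 (22.4%) above 0.5, against 16.3% and 23.2% of all tested regions. For 20 pluripotency genes, 29 (18.1%) of 160 were lower and 20 (12.5%) higher, and for 15 trophectoderm genes 9 (10.8%) of 83 were lower and 22 (26.5%) higher. In the limma fit, against 10.4% lower and 14.1% higher over all tested regions, 18 (6.02%) were lower and 46 (15.4%) higher for PrE genes, 18 (11.2%) and 9 (5.62%) for pluripotency genes, and 4 (4.82%) and 14 (16.9%) for trophectoderm genes. Within 100 kb the share of rises was thus near the background for PrE genes, but within 20 kb 16 of 108 regions (14.8%) were above 0.5, below the 23.2% of all tested regions.

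The most strongly bound region of each gene was then taken, where Col4a1 and Col4a2 share a region. Of the 24 distinct regions of PrE genes, 2 were lower, 2 were higher and 20 were not called in limma, against 10.4% lower and 14.1% higher over all tested regions. In the highest decile of SOX17 signal, 10.6% of tested regions were lower and 22.5% higher. Of the 24, those not called included the regions of the transcription factor genes Gata6, Gata4 and Sox17, of the receptor gene Pdgfra and of the basement membrane gene Col4a1. Other regions within 100 kb of these genes were called. Limma called 1 lower and 3 higher of 10 tested for Gata6, and 0 and 3 of 20 for Gata4. It called 2 and 0 of 10 for Sox17, 3 and 2 of 15 for Pdgfra, and 2 and 2 of 17 for Col4a1. The Gata4 region (chr14:63264284-63266085, intron of Gata4) held 26.0 and 25.5 RPM under control and 25.8 and 47.2 RPM under Oct4 siRNA, for a limma log2 difference of -0.06 ± 0.11 (SE, n = 2 per siRNA, Benjamini-Hochberg adjusted p = 0.734). The Sox17 region (chr1:4536608-4538990, 40.3 kb upstream) held 20.4 and 20.3 RPM against 24.3 and 50.2 RPM, a difference of 0.27 ± 0.11. The Gata4 region thus moved about as much as the median region, while the Sox17 region had an adjusted p of 0.0692 (limma, Benjamini-Hochberg) but stayed within the log2 threshold of 0.5. The regions of Dab2, an endocytic adaptor gene (1.03 ± 0.18), and Nid2, a basement membrane gene (0.92 ± 0.19), rose. Those of Hnf4a, a nuclear receptor gene (-0.78 ± 0.22), and Amn, which encodes a partner of cubilin (-0.77 ± 0.18), fell. The falls at Hnf4a and Amn and the rise at Nid2 did not pass without centering.

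Among pluripotency genes, the region near Sox2 (chr3:34720896-34721344, intergenic, 70.7 kb downstream of the start) held 10.5 and 15.7 RPM under control and 4.05 and 11.7 RPM under Oct4 siRNA. Its values overlapped in RPM but not after centering, and SOX17 fell by 1.37 ± 0.17 on the log2 scale in limma (Benjamini-Hochberg adjusted p = 4.87e-13). The regions of Esrrb (-0.92 ± 0.33), Nr0b1 (-0.64 ± 0.22) and Dppa3 (-0.54 ± 0.24), further genes of the pluripotency network, also fell, whereas that of Tdgf1, a Nodal co-receptor gene, rose (1.26 ± 0.29). The calls at Esrrb, Nr0b1 and Dppa3 were lost when 1 library was left out, for 2 or 3 of the 4 libraries, and without centering neither these nor the fall near Sox2 passed. For trophectoderm genes, of which Krt8 and Krt18 share a region, 4 of 13 distinct regions rose, against 14.1% of all tested regions, near Elf5 (1.44 ± 0.24), Tead4 (1.09 ± 0.23), Gata3 (0.64 ± 0.21) and Cdx2 (0.54 ± 0.19), all transcription factor genes of that lineage, and none fell. Rises were called at 1.8% of the lowest decile of SOX17 signal, but at 26.4% of decile 9 and 22.5% of decile 10. The 13 regions were each gene's strongest, so that the share of all tested regions is a low background for them. The calls at Gata3 and Cdx2 were lost without 3 of the 4 libraries in turn and that at Tead4 without the shallower Oct4 siRNA library, where its difference was 0.78. The regions of Pou5f1 and Nanog did not pass, at 0.35 ± 0.16 and 0.01 ± 0.13.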

How the data were processed

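The deposited table covers GATA6 regions of mouse cells on mm10. Per the study's methods, the authors trimmed reads with cutadapt, aligned them with Bowtie2, filtered them with SAMtools, removed duplicates by molecular identifiers and counted reads per region, corrected to library size; the deposited values are RPM, 1 per condition. The knock-down libraries were paired-end. Whether mates count as separate reads is not given in the sources used here, and if so, reads overstate the fragments. Motif scores deposited by the authors come from FIMO, and classes of accessibility, histone state and binding are theirs. Their outcome of the GATA6 siRNA comparison was not used, nor were 14 columns of per-sample values.

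Each siRNA value was the mean of 2 libraries. The 8 library depths followed from the steps between the lowest values, and all 42403 values per column came out as whole reads, with at least 1 read each. Whether 1 read was added to every region before scaling is not given in the sources used here, and low RPM values would then overstate the reads by 1. The libraries so resolved carry no replicate number and are named deeper and shallower. Regions with a mean of at least 0.5 RPM were tested with limma 3.58.1 (R 4.3.3, moderated with trend) on log2(RPM + pseudocount), the pseudocount being percentile 5 of both columns, each library centered on its median, with Benjamini-Hochberg adjustment over all tested regions. Calls needed an adjusted p under 0.1 and a log2 difference past 0.5. Both steps were tested on simulated data. Python 3.11.15 with numpy 2.4.6, pandas 2.3.3 and scipy 1.17.1 was used for the rest, and gene positions are those of GENCODE M21.

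Named regions are the 10 largest pooled falls and rises among those above percentile 75 of signal whose libraries do not overlap, keeping 1 per nearest gene, and the strongest region within 100 kb of each listed gene. Regions, classes and gene lists were chosen with earlier results of these data known. The alternatives were other pseudocounts, filters, shifts, thresholds and windows, strata of signal and width, and, added after seeing the data, subtraction of 1 read, leaving out libraries from the pooled values, the limma call for gene lists and the interaction with GATA6. Per the study's methods, most conditions rest on 2 independent chromatin preparations, and the exceptions listed do not include the knock-down. P-values and SE are moderated. They measure the spread between these libraries as shared across regions, not that of a single region alone.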

Additional observations from a re-analysis of the deposited data

How the results depend on the processing

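No named region that was called changed sign under the alternatives run, whereas regions that were not called could, since keeping the shift moves every region up. Class medians are differences from all regions, which the shift leaves as they are. Without removal of the shift, 1225 regions were lower and 18324 higher, and without centering limma called 19 lower and 2082 higher. With a pseudocount 10 times larger the pooled counts were 695 and 4132 and those of limma 810 and 3105, which lowers the contrast of weak regions by construction. Requiring 1 RPM gave 3365 lower, and a change past 1 gave 1246 and 2344. Leaving out each library in turn, limma called 1678 to 2662 lower and 1938 to 3886 higher, with 1678 and 1938 without the shallower and 1885 and 2540 without the deeper Oct4 siRNA library, and 2164 lower without the shallower control library. The remaining library of that siRNA is then assumed to vary like the others.

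As differences from all tested regions, class medians with the larger pseudocount were -0.09 for a high OCT:SOX score, 0.04 closed, -0.04 active enhancer, -0.08 bound before induction, 0.12 Late and -0.14 Transient. Late was 0.42 with a smaller pseudocount, 0.39 from 1 RPM and 0.40 within width deciles, Transient -0.35 from 1 RPM and bound before induction -0.27 within width deciles. A high SOX17 score gave 0.12 without a filter and 0.06 within signal deciles. The GATA6 rho was 0.63 without a filter, 0.69 with either pseudocount and 0.65 to 0.67 without each SOX17 library. Within 20 kb, lower and higher regions were 11 and 16 of 108 for PrE, 12 and 5 of 62 for pluripotency and 2 and 9 of 26 for trophectoderm genes, against 16.3% and 23.2% of all tested regions, and by limma pluripotency had 18 and 9 and trophectoderm 4 and 14. Of 220 values of the 20 most changed regions under alternatives, 216 kept their call and 4, all without centering, lost it. Of 615 for regions of listed genes, 573 kept it, 32 lost it and 10 gained it. No paired analysis was possible because the libraries resolved from the pooled columns carry no replicate number. Depth limits weak regions, where a median region rests on 16 to 25 reads per library.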

Other observations

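Repeats were examined after their values had been seen. The 1437 tested regions (4.32%) with more than 80% of the 101 bases around the summit in soft-masked repeat sequence had a median SOX17 change of -0.15, and limma with Benjamini-Hochberg adjustment called 21.0% lower and 9.26% higher. Where under 20% was masked, 9.78% were lower and 14.1% higher. Per the study's methods, alignments of low mapping quality were filtered out. How reads were assigned within repeats after that filter was not tested.

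Some motif words recurred in near-identical surroundings. The SOX17 word TCTATTGTT was the best match of 397 tested regions, with a median change of -0.30, 133 lower (33.5%) and 30 higher (7.56%). Its commonest copy, in 16 regions on GRCm38, with the motif in capitals, was the following.
SOX17 word: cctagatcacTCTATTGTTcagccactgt
The OCT:SOX word CTTTATTTTACAAAT was the best match of 45 tested regions, with a median change of -0.59, 15 lower (33.3%) and 0 higher. A median of 92.1% of bases was masked in them. Of these, 21 regions shared the following copy.
OCT:SOX word: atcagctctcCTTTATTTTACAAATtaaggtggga
Over all 45 regions with this word the median GATA6 change was -0.91. Of the 45, 37 were bound by pluripotency factors before induction and 36 were Transient, classes with low changes as a whole. Such copies are related in sequence and are not independent regions.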
